A study of Malus domestica with 6 samples.

Results

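Gibberellins and brassinosteroids are growth hormones of plants, and 4 genes of their pathways are described here in the flesh of a red-flesh apple, from 52311 gene IDs in all. They were gibberellin 2-oxidase 8 (MD16G1006700), a gibberellin-regulated family gene (MD08G1089300), BRI1 kinase inhibitor 1 (MD15G1084100) and a gene of the BZR1 family (MD08G1035400). The 4 genes were selected on their difference between red and white flesh in these same libraries, so that difference is given as a description, with no test. Their names are those of the functional annotation in the study's gene lists, and their chromosomes were read from the gene IDs.

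The tissue was untreated mesocarp (the fruit flesh) of the cultivar cv. 'R201', sampled 84 days after full bloom, when fully red fruits turn unevenly coloured. The study set red flesh (RF) against white flesh (WF), and each had 3 libraries, lettered A, B and C. The labels state that RF and WF came out of the same fruits and call the letters semi-biological replicates, taken on different trees. All samples came from 1 cultivar, and per the study RF was the outer and WF the inner cortex, so effects of colour and of position cannot be told apart. In bulk tissue, fewer cells of a type and less RNA per cell cannot be told apart either.

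Gibberellins are switched off by 2-oxidases, which add a hydroxyl group that makes the hormone inactive. In Arabidopsis, the gibberellin 2-oxidase 8 enzyme acts on early precursors of the hormone, and the gibberellin-regulated (GASA) family encodes small, cysteine-rich, secreted peptides, several of which are raised by gibberellin. Brassinosteroids bind the receptor kinase BRI1 at the cell surface. BRI1 kinase inhibitor 1 (BKI1) holds that receptor inactive until the hormone arrives, and the signal ends at transcription factors of the BZR1 family, which switch growth genes on or off.

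Library totals ran from 25540845 to 25959371 estimated reads in RF and from 25536185 to 26050906 in WF. The first principal component held 55.4% of the variance and separated RF from WF libraries. For flesh colour, 3 genes of anthocyanin synthesis and transport were read that the study named among its largest differences between RF and WF. All 3 were higher in RF, as that choice fixes, so they are no independent check of the colour labels. Among them, MdGSTU22 (MD17G1272100) had 1160 ± 145 CPM in RF and 254 ± 21.9 CPM in WF (SD, n = 3 each). Of 25 genes of green tissue (light harvesting, photosystems and Rubisco), 24 were tested, 20 were higher in RF and 4 were not called, with a summed level of 2585 to 2615 TPM in RF and 1539 to 1790 TPM in WF; photosystem I subunit H2 (MD02G1178900) was the member listed at 0. Of 6 epidermis and cuticle genes, 4 were higher and 1 lower, with a summed level of 363 to 480 TPM in RF and 333 to 373 TPM in WF, and of 6 vascular genes 3 were higher and 2 lower, with 2596 to 2958 TPM in RF and 2598 to 2729 TPM in WF. None of the 6 epidermis and 6 vascular genes was at 0 in every library. These lists were drawn mostly from the study's called genes and are no independent evidence of direction, and the part of these cell types in the results below was not tested.

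Transcripts of gibberellin 2-oxidase 8, BKI1 and MD08G1089300 were more abundant in RF, and transcripts of the BZR1 family gene were less abundant. Levels are read counts scaled to a common library size (CPM) with TMM factors, and fold changes are RF over WF on the log2 scale. By edgeR's quasi-likelihood test at an adjusted p under 0.05, 10.8% of 28610 tested genes were called, 6.08% as higher and 4.68% as lower in RF. Here 3 of 4 genes were called higher and 1 of 4 lower, and the groups did not overlap for 4 of 4, against 28.9% of all tested genes. Because the selection used this contrast, nothing is read from those counts. The median log2 fold change over all tested genes was -0.0045.

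**Figure D1:**
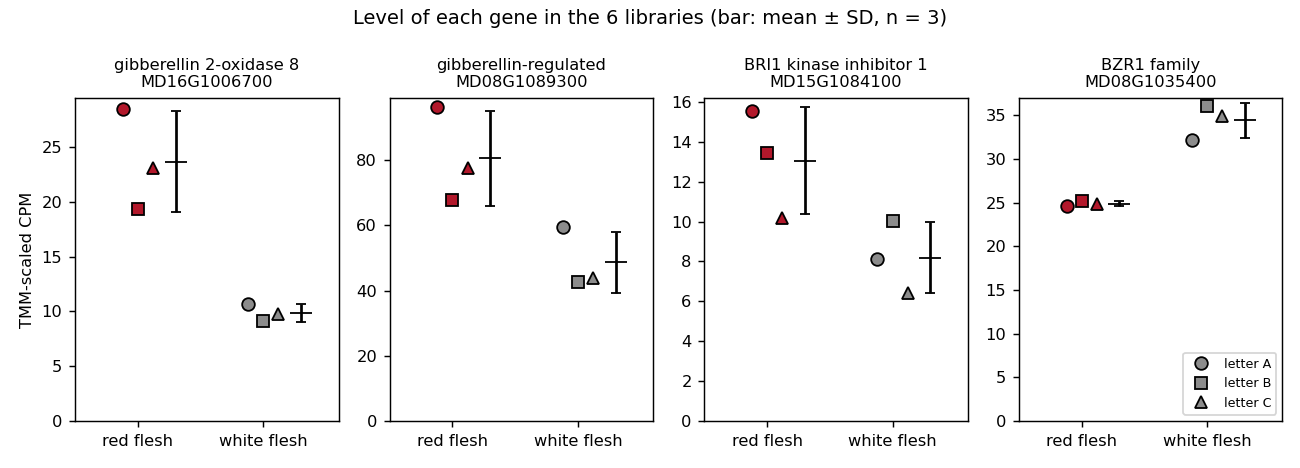
Level of the 4 genes in each library, in CPM on the vertical axis, with RF on the left and WF on the right of each panel; symbols are letters A to C and the bar is the mean ± SD (n = 3). The RF points lie above the WF points for gibberellin 2-oxidase 8, MD08G1089300 and BKI1, and below them for the BZR1 family gene.

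Gibberellin 2-oxidase 8 (MD16G1006700, chromosome 16) had the largest fold change of the 4. It had 28.5, 19.4 and 23.1 CPM in RF libraries A, B and C, against 10.7, 9.08 and 9.79 CPM in WF libraries A, B and C. All RF libraries were high, and the lowest of them stood 81.3% above the highest WF library. The means were 23.7 ± 4.59 CPM in RF and 9.85 ± 0.81 CPM in WF (SD, n = 3 each), a log2 fold change of 1.26 (SE 0.13) or 2.40-fold. Its change was larger in size than that of 98.2% of tested genes. In length-scaled units its level was 29.0, 20.2 and 23.9 TPM in RF and 11.1, 9.38 and 9.99 TPM in WF. The files listed 711, 498 and 598 reads in RF and 278, 235 and 254 reads in WF, after rounding. The spread was wider in RF, where the coefficient of variation was 19.4%, than in WF, where it was 8.21%.

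The gibberellin-regulated gene MD08G1089300 (chromosome 8) was the most abundant of the 4, at 341, 239 and 288.5 TPM in RF libraries A, B and C, against 215, 151 and 156 TPM in WF libraries A, B and C. Its mean TPM was above that of 98.0% of tested genes. In CPM it had 96.3, 67.8 and 77.5 in RF and 59.4, 42.8 and 43.7 in WF. Library A was the highest of both flesh types, and the groups did not overlap, although RF library B stood only 14.3% above WF library A. The means were 80.5 ± 14.5 CPM in RF and 48.6 ± 9.31 CPM in WF (SD, n = 3 each), a log2 fold change of 0.73 (SE 0.14) or 1.66-fold. The rounded reads were 2400, 1742 and 2006 in RF and 1543, 1107 and 1135 in WF. With each library left out in turn, the log2 fold change ran from 0.58 to 0.90.

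BKI1 (MD15G1084100, chromosome 15), the receptor inhibitor, was the least abundant in CPM. It had 15.5, 13.4 and 10.2 CPM in RF libraries A, B and C, against 8.12, 10.0 and 6.43 CPM in WF libraries A, B and C. The groups nearly touched: RF library C stood 1.93% above WF library B. The means were 13.1 ± 2.68 CPM in RF and 8.19 ± 1.79 CPM in WF (SD, n = 3 each), a log2 fold change of 0.67 (SE 0.17) or 1.59-fold. In TPM its levels were 25.3, 22.2 and 17.0 in RF and 13.5, 16.5 and 10.5 in WF, from 387, 345 and 264 rounded reads in RF and 211, 259 and 167 in WF. With each library left out in turn, the log2 fold change ran from 0.52, without WF library C, to 0.84, without WF library B.

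The BZR1 family gene (MD08G1035400, chromosome 8), whose relatives are the transcription factors at the end of the brassinosteroid signal, was the only one of the 4 lower in RF. It had 24.6, 25.2 and 24.9 CPM in RF libraries A, B and C, against 32.2, 36.1 and 34.9 CPM in WF libraries A, B and C. The RF libraries were nearly equal to each other, and all of them were below the lowest WF library, which stood 27.8% above the highest RF library. The means were 24.9 ± 0.32 CPM in RF and 34.4 ± 1.99 CPM in WF (SD, n = 3 each), a log2 fold change of -0.47 (SE 0.07) or 0.72-fold. Its levels were 24.9, 26.1 and 25.6 TPM in RF and 33.3, 37.2 and 35.5 TPM in WF, from 613, 648 and 644 rounded reads in RF and 838, 935 and 906 in WF.

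Set beside their textbook roles, the higher transcript of the inactivating enzyme, the higher transcript of the receptor inhibitor and the lower transcript of the BZR1 family gene all lie on the side of less hormone action in RF, and the higher GASA transcript lies on the side of more. That sorting covers only the 4 selected genes, and hormone-linked genes outside them, given below, lay on both sides. By their descriptions, lower MD06G1122900 and higher MD10G1062200 would lie on the side of more brassinosteroid action. Higher shaggy-related kinase 11 would lie on the side of less. In the GASA family, lower MD09G1263900 would lie on the side of less gibberellin action, opposite to MD08G1089300. Other genes given below were not sorted in this way. Neither hormone was among the measurements used here, and a transcript level does not give the activity of the protein. The ratio of the BZR1 family gene to BKI1, both in TPM, was 0.985, 1.18 and 1.505 in RF libraries A, B and C, against 2.47, 2.26 and 3.37 in WF libraries A, B and C. It was lower in RF for all 3 letters, as the selection of both genes fixes.

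Because the letters mark flesh from the same fruits, RF was also set against WF within each letter. Gibberellin 2-oxidase 8 had RF over WF ratios of 2.67, 2.13 and 2.36 for letters A, B and C, and its log2 ratios had an SD of 0.16. MD08G1089300 had ratios of 1.62, 1.59 and 1.77 and an SD of 0.085, the narrowest of the 3 genes higher in RF. BKI1 had ratios of 1.91, 1.34 and 1.59 and the widest SD, 0.26. The BZR1 family gene had ratios of 0.76, 0.70 and 0.71. The direction was the same in 3 of 3 letters for each of the 4 genes, as the selection and groups without overlap fix.

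**Figure D2:**
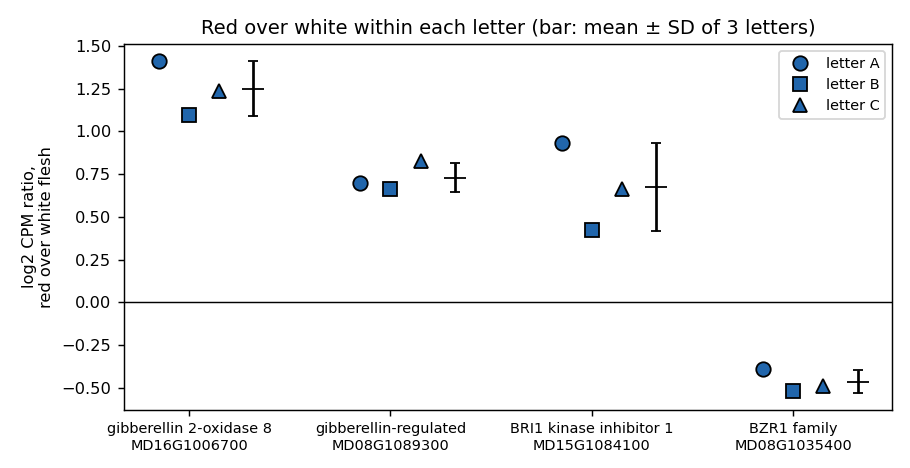
The log2 ratio of RF over WF within each letter for the 4 genes, in CPM; symbols are letters A to C, the bar is the mean ± SD of 3 letters and the line at 0 marks equal levels. BKI1 has the widest spread between letters, and the BZR1 family gene lies below 0 for all letters.

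The difference between letters was not itself used in the selection and was tested with the flesh type in the same edgeR model, where 2.34% of all tested genes passed. The study stated no block for letters, so spread between letters could weigh on which genes it called. That share is therefore no fair yardstick for the 4 genes. Of the 4 genes 1 passed: MD08G1089300, with an edgeR adjusted p for letters of 0.00273 and an adjusted p of 1.61e-08 to 0.0309 over 11 settings. Its letter A level was the highest in both flesh types, by 0.27 in RF and 0.30 in WF above the mean of the flesh type on the log2(CPM + 1) scale. Gibberellin 2-oxidase 8 did not pass (edgeR adjusted p = 0.0771, from 0.00292 to 0.722 over the settings), and its order of letters, A then C then B, was the same in both flesh types. It passed without WF library C (adjusted p = 0.00292) and without RF library C (adjusted p = 0.00461).

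BKI1 did not pass the letter test (edgeR adjusted p = 0.0731, from 0.0248 to 0.525 over the settings), with letter C lowest in both flesh types. It passed without WF library A, WF library C or RF library B, with adjusted p of 0.0271, 0.0248 and 0.0259 in that order. The BZR1 family gene varied least (edgeR adjusted p = 0.679, from 0.610 to 1.00 over the settings). Its spread within groups, 0.059 on the log2 scale, was wider than that of 23.8% of 8056 genes of like level, whereas that of MD08G1089300, 0.26, was wider than 98.1% of 5671 genes of like level. The spread of MD08G1089300 between the letters' ratios was wider than that of 53.4% of those genes.

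**Figure D3:**
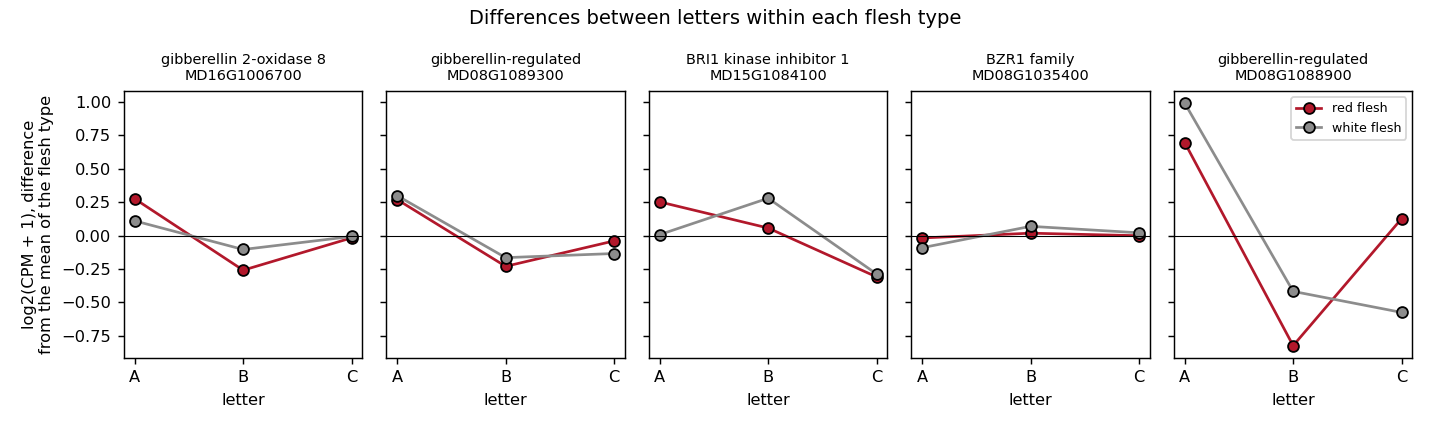
Difference of each library from the mean of its flesh type on the log2(CPM + 1) scale, by letter, with RF in red and WF in grey. MD08G1089300 and MD08G1088900 are highest in letter A of both flesh types, and the BZR1 family gene stays within 0.1 of its means.

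A further gibberellin-regulated gene, MD08G1088900, lies close to MD08G1089300 on chromosome 8, with 3 gene IDs between them. It had 6.22, 1.52 and 3.86 CPM in RF libraries A, B and C, against 5.04, 1.28 and 1.04 CPM in WF libraries A, B and C. It differed between letters (edgeR adjusted p = 0.00703, from 2.48e-12 to 0.045 over the settings), and letter A was highest in both flesh types. Its difference between RF and WF did not pass the test (log2 fold change 0.65, SE 0.56, edgeR adjusted p = 0.528, from 0.0488 to 0.941 over the settings), and the groups overlapped. Without WF library A it passed, at a log2 fold change of 1.73 (edgeR adjusted p = 0.0488). With the letters as pairs it did not pass, at an adjusted p of 0.0566 in edgeR (log2 fold change 0.73, SE 0.25) and 0.180 in DESeq2. Both genes are listed with a length of 577 bases, and whether reads were divided between them was not tested. Of 26 hormone-linked genes tested for letters, 2 passed, against 2.34% of all tested genes, and these were the 2. If the 2 genes share reads, their calls are not independent, so nothing is read from this count.

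The remaining GASA family genes were both on chromosome 9, and neither was called higher by the unpaired test. MD09G1263900 had 101, 101 and 95.7 CPM in RF libraries A, B and C, against 137, 141 and 121 CPM in WF libraries A, B and C. It was the lower one in RF, with a log2 fold change of -0.42 (SE 0.07), and the groups did not overlap. MD09G1038100 averaged 5.96 ± 1.20 CPM in RF and 4.45 ± 0.82 CPM in WF (SD, n = 3 each), with an edgeR adjusted p of 0.170 for the difference and 0.0219 with the letters as pairs in edgeR. With the same pairs in DESeq2 the adjusted p was 0.340, and over all settings it ran from 0.0219 to 0.474, with 1 call in 15. Summed over the 4 GASA genes, the level was 642, 524 and 574 TPM in RF and 614, 538 and 490 TPM in WF, and the groups overlapped. Within that sum MD08G1089300 made up 53.1%, 45.6% and 50.2% in RF and 35.1%, 28.0% and 31.9% in WF.

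**Figure D4:**
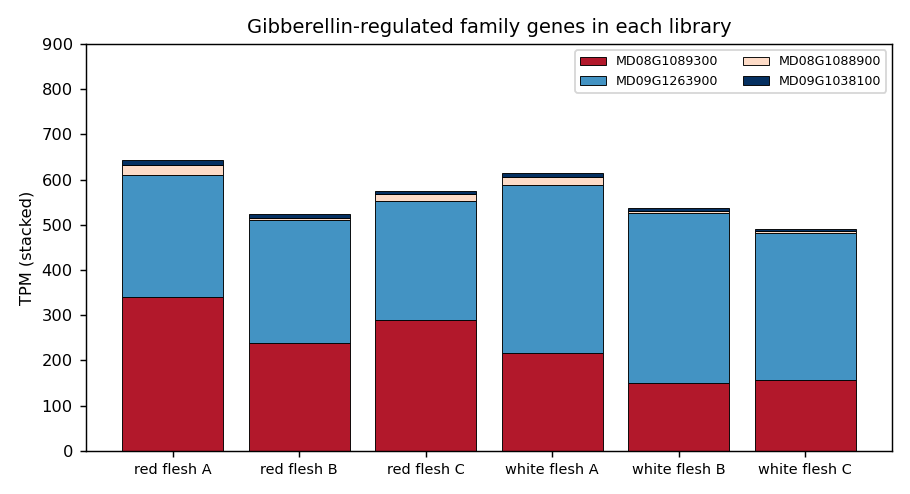
TPM of the 4 gibberellin-regulated family genes, stacked, in each RF library (left) and each WF library (right). The totals of 490 to 642 TPM overlap between flesh types, and MD08G1089300 (bottom of each bar) takes the larger share in RF.

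Hormone-linked genes were gathered into 7 lists by the words of their descriptions, 28 genes in all. Of the 26 tested, 10 were higher in RF, 8 lower and 8 not called, with a median log2 fold change of 0.29; of all tested genes, 6.08% were higher and 4.68% lower. With the letters as pairs in edgeR, 13 were higher and 9 lower, where 10.4% of all genes were higher and 8.39% lower. The same pairing in DESeq2 gave 12 higher and 9 lower. Most descriptions came from the study's list of called genes, so those genes had been picked on these samples and their counts are no independent evidence of direction. Exceptions were 8 genes that, among the descriptions held, came only from the study's list of genes near methylated regions. Their RF against WF difference was tested.

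Among those 8 genes, 6 were tested, 1 was lower in RF and 5 were not called, against 10.8% of all tested genes called in either direction and 4.68% called lower. A single call among 6 genes is not a result about the group. Genes in the held part of the called list were left out of the 8. That can lower the share called, so it cannot be compared fairly with the share over all tested genes. The lower one, MD06G1122900 (chromosome 6), is described as a brassinosteroid-responsive RING-H2 gene, a class named in Arabidopsis for a ring-finger protein whose transcript falls on brassinosteroid treatment. It had 3, 2 and 3 rounded reads in RF libraries A, B and C, against 22, 21 and 25 in WF libraries A, B and C. The groups were far apart, at very low levels. Its log2 fold change was -3.00 (SE 0.37, edgeR adjusted p = 0.0006, from 0.000173 to 0.00481 over the settings in which it was tested). It passed the default expression filter only through its WF libraries, where it was high, so that filter favoured a call in this direction. With no filter on low counts, the log2 fold change was -3.01 (SE 0.41, edgeR adjusted p = 0.000522). The ratio of its summed reads, 8 in RF to 68 in WF, was 0.120 (exact 95% interval 0.0497 to 0.249, counting error only). In TPM it averaged 0.404 ± 0.096 in RF and 3.34 ± 0.32 in WF (SD, n = 3 each).

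The other gene with this description, MD06G1088300 (chromosome 6), had 7 to 14 reads per library and did not pass (edgeR adjusted p = 0.638 at a log2 fold change of 0.33, SE 0.37). The GRAS family gene MD07G1115800 averaged 21.0 ± 0.97 CPM in RF and 20.2 ± 0.89 CPM in WF (SD, n = 3 each; edgeR adjusted p = 0.710), and expansin A4 (MD07G1200300) averaged 5.83 ± 0.16 CPM in RF and 5.38 ± 0.30 CPM in WF (edgeR adjusted p = 0.588). The cytochrome P450 gene MD07G1095000 had 2 reads over the RF libraries and 10 over the WF libraries and was below the filter for testing. The bHLH gene MD06G1190900 had 0 reads in all 6 libraries, which allows up to 0.115 to 0.117 CPM per library, from counting error alone.

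The GRAS family holds the DELLA proteins, which restrain growth until gibberellin removes them, and many other regulators; the descriptions do not say which kind these genes are. Of its 5 genes, 2 were higher in RF and 1 lower, and 3 were higher with the letters as pairs. The gene added by the pairing, MD11G1098100, averaged 10.4 ± 1.39 CPM in RF and 7.25 ± 1.51 CPM in WF (log2 fold change 0.52). MD11G1229600 averaged 7.38 ± 0.60 CPM in RF and 4.54 ± 0.24 CPM in WF (log2 fold change 0.70), and scarecrow-like 5 (MD03G1188800) averaged 63.7 ± 0.86 CPM in RF and 50.1 ± 4.41 CPM in WF (0.35). MD15G1263000 was the lower one, at 34.1 ± 1.24 CPM in RF and 44.9 ± 0.77 CPM in WF (-0.40; SD, n = 3 each).

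Brassinosteroids are built from plant sterols. Of 4 genes of sterol and steroid synthesis, 2 were higher in RF and 2 were not called, and with the letters as pairs 3 were higher and 1 lower. The 3-oxo-5-alpha-steroid 4-dehydrogenase family gene (MD10G1062200), of the family that in Arabidopsis includes the brassinosteroid synthesis enzyme DET2, averaged 27.8 ± 2.47 CPM in RF and 20.4 ± 3.40 CPM in WF (log2 fold change 0.45). Sterol 4-alpha-methyl-oxidase 2-1 (MD03G1085200) averaged 98.0 ± 4.48 CPM in RF and 82.3 ± 1.53 CPM in WF (0.25). Sterol methyltransferase 1 (MD02G1307400) and an ERG4/ERG24 family gene (MD17G1163300) had log2 fold changes of -0.31 and 0.26 and were not called without the pairing (SD, n = 3 each).

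KNOTTED-like homeobox genes encode transcription factors, some of which repress gibberellin synthesis in other plants. All 4 were taken from the study's list of called genes, so their calls here, in both directions, are a description only. The genes described as number 7 of the Arabidopsis family, MD04G1069700 and MD06G1071100, had log2 fold changes of 1.14 and 1.03. The others had -0.33 (MD02G1012900) and -0.48 (MD06G1171700). MD04G1069700 averaged 35.0 ± 2.33 CPM in RF and 15.9 ± 0.16 CPM in WF (SD, n = 3 each). Of the 3 genes of expansins, which loosen cell walls, and EXORDIUM-like proteins, 2 were lower in RF: expansin A13 (MD17G1271500) had a log2 fold change of -0.43 and EXORDIUM like 3 (MD01G1184600) one of -0.38. Shaggy-related kinase 11 (MD17G1279400), of the kinase family that includes the brassinosteroid repressor BIN2 of Arabidopsis, had a log2 fold change of 0.36 and was called higher.

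**Figure D5:**
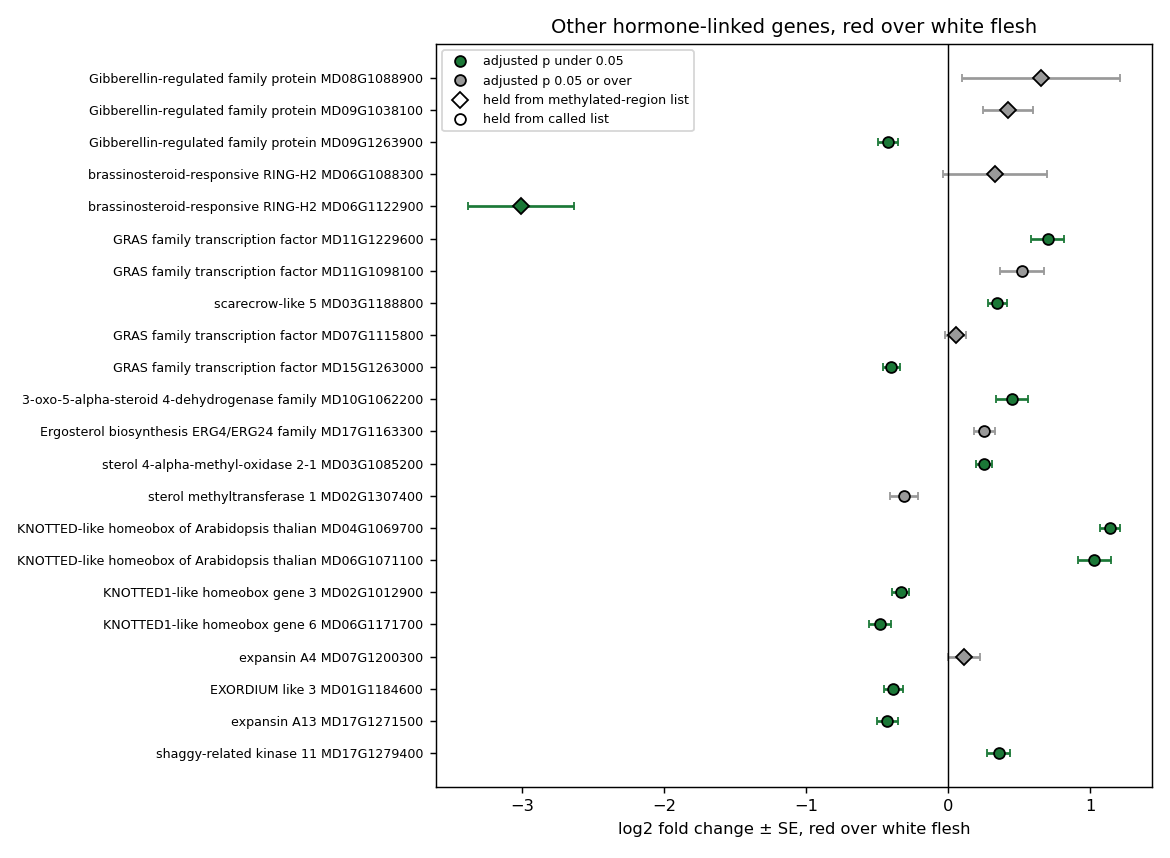
The log2 fold change of RF over WF with its SE for the 22 tested hormone-linked genes outside the 4; green marks an adjusted p under 0.05, circles genes held from the study's called list and diamonds genes held from its methylated-region list. MD06G1122900 lies farthest to the left, at -3.00, and the KNOTTED-like genes lie on both sides of 0.

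The genes nearest to the 4 by ID were also read. Of the 5 IDs on either side of gibberellin 2-oxidase 8, 7 of 10 were tested, with 0 higher and 2 lower and log2 fold changes from -0.52 to 0.12. Over all tested genes, 6.08% were higher and 4.68% lower, and counts of so few neighbours are a description only. Around MD08G1089300, BKI1 and the BZR1 family gene, 6, 9 and 4 neighbours were tested in that order, and 0 were called in either direction by edgeR or by DESeq2. An unadjusted p under 0.05 in edgeR was reached by 0, 2 and 2 of them in that order.

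The described genes most like each of the 4 across the 6 libraries were taken by Pearson's r of log2(CPM + 1), from 1781 genes with a description and a mean of at least 100 reads. The libraries share the RF against WF contrast, and most candidates came from the called list, so high values of r are a description only. Closest to gibberellin 2-oxidase 8 was oligopeptide transporter 5 (MD03G1029900), at 10.3 CPM in RF and 1.07 CPM in WF on average (r = 0.9996), and closest to MD08G1089300 was UDP-glucosyl transferase 85A3 (MD17G1124900), at 8.13 CPM in RF and 5.43 CPM in WF (r = 0.999). Closest to the BZR1 family gene was a protein kinase gene with a tetratricopeptide repeat (MD12G1156600), at 35.6 CPM in RF and 47.5 CPM in WF (r = 0.998), and closest to BKI1 was a granulin repeat cysteine protease gene (MD15G1287500), at 164 CPM in RF and 136 CPM in WF (r = 0.989). Among the 4 themselves, r over the 6 libraries ran from -0.97, between gibberellin 2-oxidase 8 and the BZR1 family gene, to 0.95, between gibberellin 2-oxidase 8 and MD08G1089300.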

How the data were processed

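Libraries were poly(A)-enriched and marked for strand with dUTP. The authors deposited 1 table per library in the format of salmon, with an estimated count of reads and a TPM value for each gene ID, beside its length and effective length. The deposited TPM values are scaled for effective length within a library. The program's version and settings, strand use among them, were not given in the sources used here. Per the study, the genome was GDDH13 v1.1 and its test DESeq2. The estimated counts were rounded to integers (whole numbers). Of 24 values of the 4 genes 7 were whole within 0.0005 reads, with the largest distance from a whole number at 0.46 reads.

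RF was set against WF by edgeR 4.0.16 (quasi-likelihood test, TMM, its default expression filter, R 4.3.3), two-sided, with Benjamini-Hochberg adjustment over 28610 genes and flesh type as the only term. Each SE is the fold change over the square root of its test statistic. Letters were tested in the model with both terms. Fits across genes were tested on simulated data. TPM was not tested. The 4 genes, the lists and the tests were chosen with earlier results of these data known. Genes named are the 4, the other list members and, for likeness, the closest described gene, with 3 taken per gene. Descriptions were held for 2125 IDs from lists of which the called list was held in part, and 0 IDs matched the RefSeq table.

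Deviations of same-letter RF and WF samples from their group means correlated across genes by 0.35 (A), 0.28 (B) and 0.27 (C), against -0.27 to 0.02 between letters. A gene's deviations cancel out within a flesh type, so positive same-letter values nearly force negative ones between letters on average. The values between letters are therefore no separate support for the pairing. With the labels naming the same fruits, same-letter samples were treated as pairs in the within-letter ratios, the letter test and the replicate block. The main RF against WF test left the pairing out. P-values of the main test judge the RF against WF difference by the spread between these 3 semi-biological replicates. In the letter test and the replicate block, differences are judged by the spread left after flesh type and letter are both fitted. Alternatives were DESeq2 1.42.0, its size factors, effective-length offsets, no filter, a minimum mean of 50 counts, robust dispersion, the replicate block, a pseudocount of 1 on TPM, and each library left out.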

Additional observations from a re-analysis of the deposited data

How the results depend on the processing

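The log2 fold changes of the 4 genes kept their direction in every setting run, at 1.11 to 1.38 for gibberellin 2-oxidase 8, 0.58 to 0.90 for MD08G1089300, 0.52 to 0.84 for BKI1 and -0.51 to -0.44 for the BZR1 family gene. As a description of the contrast that chose them, and no support for it, 2 of the 4 were called with robust dispersion estimation and 3 to 4 with a library left out. BKI1 was called in 10 of 15 settings, MD08G1089300 in 14 and the remaining genes in 15. BKI1 was not called with robust dispersion estimation or without WF library A, WF library C, RF library A or RF library B. With the letters as pairs (replicate block) in edgeR, 2981 genes were higher and 2401 lower in RF, against 1740 and 1340, whereas DESeq2 with the replicate block, chosen after seeing the data, gave 1480 and 1030. In edgeR's block fit the hormone genes near methylated regions called were 2 against 1, MD09G1038100 being added (log2 fold change 0.42), and in DESeq2's block fit 1, without it (adjusted p = 0.340). That count was 0 at a mean of at least 50 counts, where MD06G1122900 was not tested, and 1 to 2 with a library left out. Leaving out each library gave 939 to 1624 genes higher and 666 to 1523 lower; there were 939 and 705 without WF library B, 941 and 666 without RF library A, and 807 lower without RF library C. Genes that differed between letters numbered 669, and 309 by DESeq2's likelihood ratio test. They numbered 457 to 2784 with a library left out, a fit with 1 residual degree of freedom, and of the 4 genes 1 to 3 then differed. Without WF library A, MD08G1088900 was called (log2 fold change 1.73). Counts of 2 to 25 reads limit the precision for MD06G1122900.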
